A study of Homo sapiens with 17 samples.

Results

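The 3 wild-type (WT) RNA libraries of the series were described on their own: which genes took the reads, which neuronal and regional identities the RNA showed, and how far the libraries differed from each other. They were taken by their labels and are 3 of the 8 RNA libraries and 3 of the 17 samples. The series grew neurons to day 40 from H9, an established human embryonic stem cell line at passage 40, with the genotype UTX-/- (KO, lines KO1 and KO2) or WT. UTX is encoded by KDM6A. PolyA RNA was sequenced from 3 KO1, 2 KO2 and 3 WT libraries, and ChIP-seq had 1 library per line for H3K27me3, for H3K36me3 and for a control. All groups shared 1 protocol: embryoid bodies, rosettes picked by hand at day 14, growth as neurospheres in 0.2 μM retinoic acid and 20 ng/ml FGF2 until day 20, then plating in medium with 10 ng/ml each of BDNF and GDNF. The labels do not say whether the WT libraries came from separate differentiations, so the spread between them may be in part technical.

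Neural differentiation of this kind passes through rosettes, the in vitro counterpart of the neural tube epithelium, whose radial progenitors later give rise to neurons. Position along the body axis is recorded by transcription factors: EMX genes mark the dorsal forebrain, and HOX genes, which retinoic acid induces in ordered clusters, mark the hindbrain and spinal cord. Dorsal forebrain progenitors make glutamatergic projection neurons and ventral ones make GABAergic interneurons through DLX genes. In bulk RNA, fewer cells of a type and less RNA per cell cannot be told apart.

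The deposited table gave estimated counts for 60199 genes, which were rounded and expressed as CPM, in which each library is scaled to the same total, after TMM scaling, a correction for composition, over all 8 RNA libraries. WT totals were 23.9, 27.8 and 17.4 M (M for mega) in replicates 1, 2 and 3, and WT values are given in this order below. The 5 KO totals ran between 18.7 and 31.5 M. In WT, 30504 genes had at least 1 count in some library, 15886 had a mean of at least 1 CPM and 12550 a mean of at least 5 CPM. CPM is not corrected for transcript length, so it gives a gene's share of the reads and no order of molecule numbers between genes. The KO1 replicate 2 library and both KO2 libraries stood apart by their mesenchymal genes. The mean log2 CPM of 22 mesenchymal genes was 5.38, 9.83 and 5.22 in KO1 and 8.96 and 9.32 in KO2, against 4.67, 2.87 and 5.69 in WT.

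The genes with the most reads encoded the mitochondrial respiratory chain, translation factors and the cytoskeleton. The 25 highest took 8.63%, 8.29% and 7.76% of all counts. MT-CO1, the catalytic subunit of cytochrome c oxidase, had 11602, 10075 and 9479 CPM, and EEF1A1, which brings aminoacyl-tRNA to the ribosome, had 9600.2, 8308 and 7884 CPM. Cytoskeletal genes followed: ACTG1, cytoplasmic actin, had 5373, 5179.6 and 4769 CPM and TUBA1A, the main tubulin of young neurons, 3873, 4323 and 3248 CPM. These 4 genes were lowest in replicate 3, and TUBA1A was highest in replicate 2. MAP1B, a microtubule protein of growing axons, had 2167, 2250.4 and 1438 CPM, and VIM, the intermediate filament of neural progenitors, had 2399.9, 1800.1 and 2012 CPM. Both an axonal and a progenitor filament gene stood among the 25. Mitochondrially encoded mRNAs made up 3.31%, 3.26% and 3.06% of the counts.

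**Figure D1:**
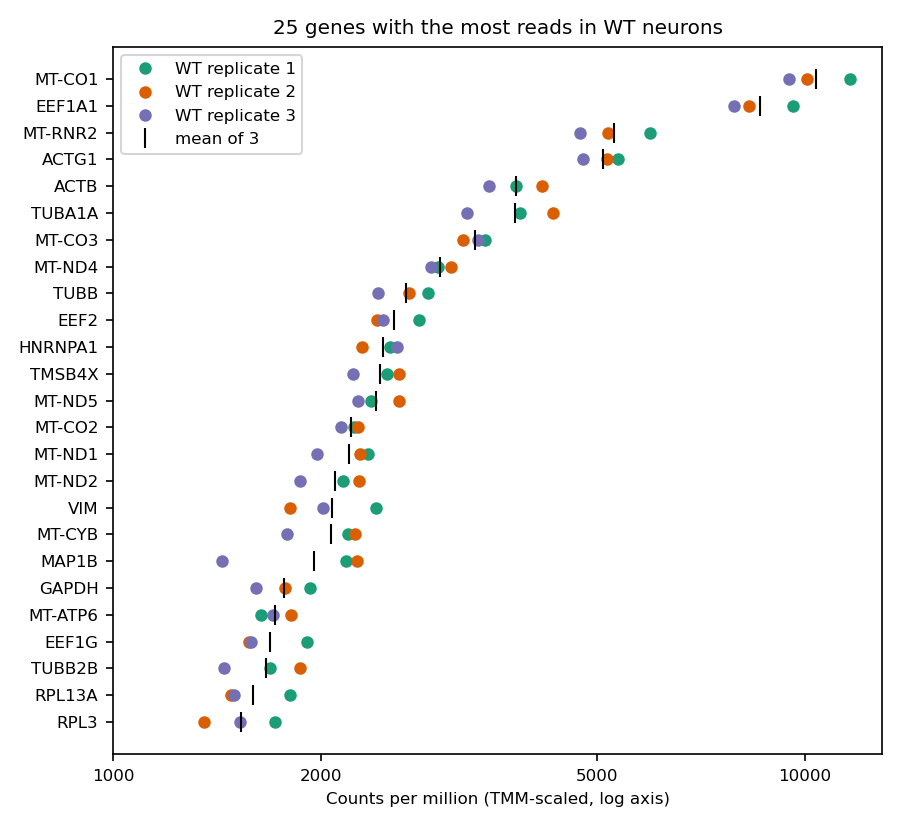
CPM (log axis) of the 25 genes with the most reads, with 1 point per WT library and a bar at the mean of the 3. The points of each gene lie close together, and MAP1B in replicate 3, at 1438 CPM, lies well below its other 2 libraries.

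KDM6A, the gene knocked out in the other lines, had 36.03, 35.9 and 35.2 CPM in WT. In the KO libraries its counts over the whole gene were 25.9 at the lowest, 33.9 at the median and 40.8 CPM at the highest, so the values of KO and WT libraries overlap, and the RNA level alone does not set the KO labels apart. The labels do not say which part of the gene was deleted. The other chromatin regulators were steady across WT. EZH2, the catalytic subunit of Polycomb repressive complex 2, had 122, 126 and 153 CPM, KMT2D, the methyltransferase that UTX partners, 208, 236 and 234 CPM, and KMT2A, a methyltransferase of HOX genes, 275, 295 and 279 CPM. Of 18 Polycomb and COMPASS genes, 0 differed by more than 2-fold between the highest and the lowest WT library, beside 8.8% of all genes at 5 CPM or more, and their median SD of log2 CPM was 0.09.

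The 10 steadiest genes at 50 CPM or more were housekeeping and regulatory genes. MGA, a MAX-binding repressor, had 78.02, 78.1 and 78.03 CPM and HGSNAT, a lysosomal acetyltransferase, 70.5, 70.3 and 70.4 CPM. GRK2, a kinase that turns off G protein-coupled receptors, had 95.3, 95.3 and 94.98 CPM, and PDS5A, a cohesin cofactor, 178, 178 and 179 CPM. The other 6 were AFG3L2, ELF2, LUC7L2, STK35, LZTR1 and SAMD4B. Their highest library exceeded their lowest by at most 1.01-fold, and each SD was smaller than counting error alone would give, which for MGA was 0.03 against an observed 0.0012 on the log2 scale. These ranges rest on the scaling chosen: with scaling by totals alone the log2 range was 0.06 for MGA and 0.07 for PDS5A. The 10 are the extreme of all genes at 50 CPM or more and mark no reference set.

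Under the label of neurons, neuronal and progenitor RNA stood side by side. All 25 pan-neuronal genes had at least 1 CPM and 24 had at least 5. TUBB3, the neuronal tubulin, had 969.8, 1148 and 968 CPM, DCX, a microtubule protein of migrating neurons, 759, 1322 and 896 CPM, and MAP2, of dendrites, 894, 1192 and 780.5 CPM. DPYSL3, a collapsin response mediator of growth cones, had 1024, 1312 and 740.3 CPM. Of the 24, 18 were highest in replicate 2 and 16 were lowest in replicate 3, whereas over all 12550 genes 30.7% were highest in replicate 2 and 35.6% lowest in replicate 3. RBFOX3, which encodes the NeuN antigen of mature neurons, had 12.97, 7.95 and 2.74 CPM, and the heavy neurofilament gene NEFH stayed below 5 CPM in all 3 libraries.

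Presynaptic and postsynaptic genes were present at lower shares of the reads. In the release machinery, 23 of 24 genes had at least 5 CPM. Of these 17 were highest in replicate 2 and 17 lowest in replicate 3, beside 30.7% and 35.6% of all genes. DNM1, the dynamin of vesicle endocytosis, had 159.9, 169.7 and 202 CPM, SV2A, a vesicle glycoprotein, 138, 178 and 139 CPM and CPLX2, a complexin, 156, 177 and 78.9 CPM. DNM1 was highest in replicate 3, and the other 2 were highest in replicate 2. On the receiving side NLGN2, the adhesion protein of inhibitory synapses, had 382, 377 and 431 CPM, DLG4, the scaffold PSD-95, 151, 174 and 144 CPM and GRIA2, an AMPA receptor subunit, 90.3, 119 and 91.7 CPM. Among 18 ion channel genes KCNQ3, a potassium channel subunit, had 123, 99.6 and 56.6 CPM. SCN8A, a sodium channel of the axon initial segment, had 63.9, 67.4 and 59.5 CPM and SCN3A, the fetal one, 37.97, 80.8 and 54.3 CPM. SCN8A was nearly level, while SCN3A was lowest in replicate 1 and KCNQ3 in replicate 3.

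Progenitor and cell-cycle genes were present throughout the 3 libraries. All 27 radial glia genes had at least 1 CPM. Besides VIM they were led by PTPRZ1, a phosphatase of radial glia, with 1043, 849 and 732 CPM, NES, the progenitor filament nestin, with 778, 797 and 742 CPM, and CDH2, the neuroepithelial cadherin, with 606, 624 and 511 CPM. All 24 proliferation genes had at least 5 CPM, and 0 of the 24 went past 2-fold between libraries, beside 8.8% of all genes. TOP2A, the topoisomerase of dividing cells, had 544, 484 and 609.8 CPM, MKI67, the Ki-67 antigen, 383, 356 and 410.3 CPM, MCM7, a replicative helicase subunit, 393, 349.7 and 338 CPM and CENPF, a kinetochore protein, 356, 300.3 and 418 CPM. Replicate 3 was highest for 16 of the 24 and replicate 2 lowest for 17, beside 35.6% and 33.5% of all genes. Summed over each list, radial glia genes had 8300, 7513 and 7974 CPM, proliferation genes 3905, 3511 and 4103 CPM and pan-neuronal genes 7331, 10440 and 6834 CPM. Replicate 2 had the highest pan-neuronal sum and the lowest sum of both other lists, but the mean log2 CPM of the radial glia list, in which each gene counts alike, was 6.78, 6.91 and 7.03 and lowest in replicate 1.

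Among the lists of regional regulators, the forebrain list had the most members at 5 CPM or more. PAX6, of dorsal progenitors, had 325, 327 and 424 CPM, LHX2, a cortical selector, 472, 361 and 222 CPM and EMX2, a dorsal patterning gene, 366, 250.02 and 171 CPM. PAX6 was highest in replicate 3, whereas LHX2 and EMX2 were highest in replicate 1 and lowest in replicate 3. Of 22 forebrain regulators 18 had at least 5 CPM, compared with 6 of 20 midbrain, 8 of 28 hindbrain or spinal and 10 of 39 HOX genes. The summed CPM was 2999, 3065 and 2747 for the forebrain list, and 107, 433 and 414 for the HOX list. SIX6, an eye and hypothalamus factor, had 0 counts in all 3 libraries.

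All 20 genes of cortical projection neurons had at least 1 CPM, compared with 15 of 20 GABAergic genes. POU3F3, an upper-layer and progenitor factor, had 350.2, 347 and 387 CPM, TBR1, of deep-layer neurons, 274, 239.6 and 98.7 CPM, CUX1, of upper layers, 179, 192 and 164 CPM and BCL11A, a cortical zinc-finger factor, 165, 179.97 and 83.4 CPM. TBR1 and BCL11A were lowest in replicate 3, while POU3F3 and CUX1 varied little. In the GABAergic list SP8, of ventral progenitors and olfactory interneurons, had 116, 91.7 and 64.2 CPM. NKX2-1, of the medial ganglionic eminence, had 0 counts. Of 16 genes for other transmitters 3 reached 5 CPM: SLC6A9, a glycine transporter, with 42.8, 31.4 and 21.5 CPM, SLC6A5, the neuronal glycine transporter, with 3.61, 5.59 and 24.6 CPM, and TH, of catecholamine synthesis, with 5.31, 8.16 and 5.36 CPM. FEV, of serotonin neurons, had 0 counts. In the sensory and peripheral list, the neurotrophin receptor genes NTRK2 and NTRK3, which central neurons also use, had 164, 160.2 and 162 CPM and 176, 157 and 109 CPM, and SCN10A, a sodium channel of nociceptors, had 0 counts.

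**Figure D2:**
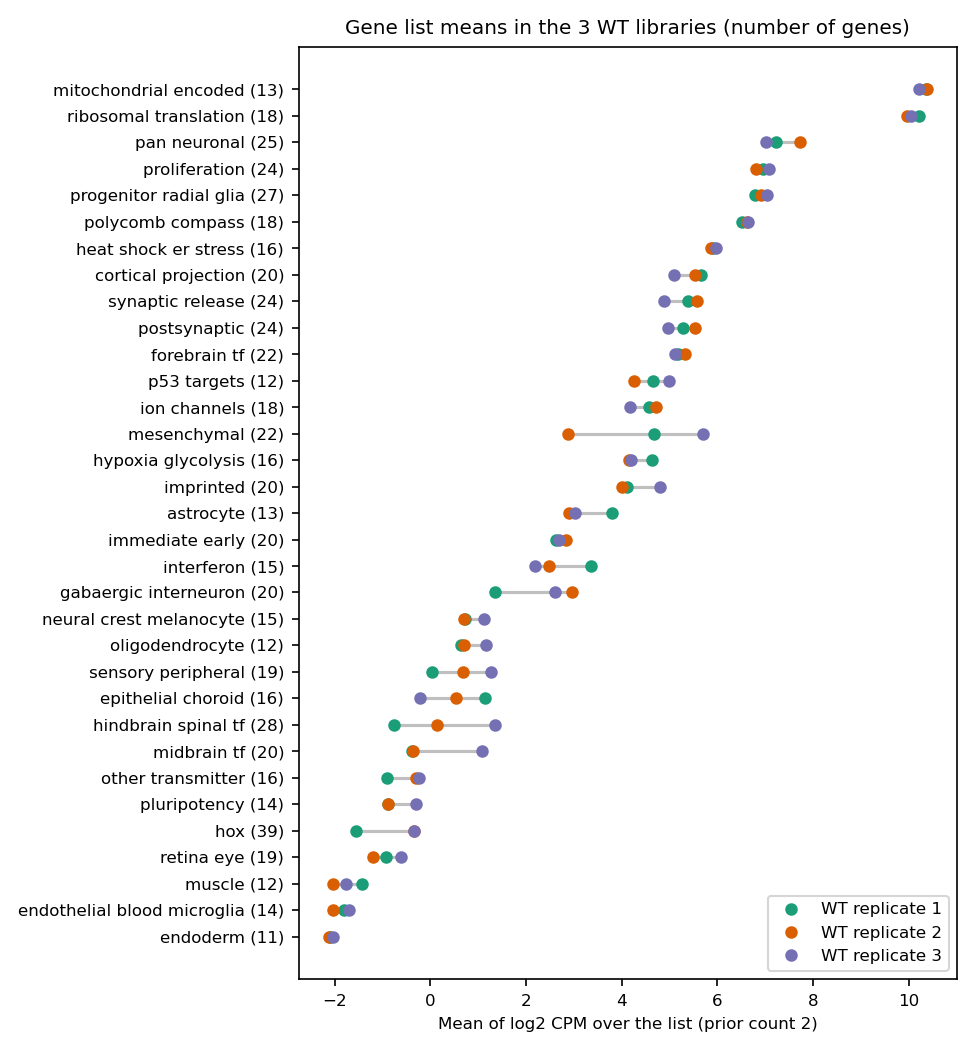
Mean log2 CPM of each gene list in the 3 WT libraries, with the number of genes in parentheses and a grey line over the range. The mesenchymal list shows the widest range, with 4.67, 2.87 and 5.69, and the GABAergic, hindbrain or spinal, and midbrain lists are also wide.

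Markers of other lineages were checked by list. Of 14 endothelial, blood and microglial genes 0 reached 5 CPM, the list summed to 8.15, 7.89 and 7.83 CPM, and C1QA, HBA1 and HBB had 0 counts. Of 12 muscle genes 0 reached 5 CPM, with MYOD1, MYF5 and TNNT2 at 0 counts. Among 13 astrocyte genes 7 reached 5 CPM, led by GLUL, glutamine synthetase, with 306, 306 and 286 CPM and CLU, clusterin, with 256, 185 and 169 CPM, while GFAP, the defining filament, had 4.74, 0.686 and 0.161 CPM. In the oligodendrocyte list 4 of 12 genes reached 5 CPM and 3 went past 2-fold, beside 8.8% of all genes at 5 CPM or more. CNP, a myelin gene that other neural cells also express, had 110.4, 105 and 93.9 CPM, and MAG, a defining myelin gene, had 0 counts. In the epithelial and choroid list 5 of 16 genes reached 5 CPM, 4 of them past 2-fold, also beside 8.8%, and the sum was 135, 73.2 and 39.3 CPM. The choroid plexus gene TTR, a thyroid hormone carrier, had 66.99, 34.4 and 6.54 CPM, whereas SOX17 and CDX2, of endoderm, had 0 counts. The pluripotency list was led by DNMT3B, a DNA methyltransferase, with 46.2, 42.6 and 60.7 CPM, and ZFP42 and LEFTY2 had 0 counts. In the retina and eye list 1 of 19 genes reached 5 CPM, namely ALDH1A3, a retinoic acid enzyme.

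Differences between the 3 WT libraries were mostly small but larger than counting error. Of the 12550 genes at 5 CPM or more, 10108 (80.5%) passed edgeR's likelihood-ratio test with the dispersion set to 0, at a Benjamini-Hochberg FDR of 0.05. This test compares these 3 libraries with each other by their reads and says nothing about genotype. At these depths it calls small differences, so its count is no measure of their size. The SD of log2 CPM had a median of 0.175, and 90% of genes lay below 0.49. The highest library exceeded the lowest by more than 2-fold for 1104 genes (8.8%) and by more than 4-fold for 254 (2.02%). Genes under 50 CPM varied more than those above, with a median SD of 0.31 and 23.6% past 2-fold at 5 to 10 CPM, and a median SD of 0.19 and 9.1% at 10 to 50 CPM. The median SD was 0.14 at 50 to 100 and at 100 to 500 CPM, with no further decline, and 0.15 with 2.09% past 2-fold at 500 CPM or more. Counting error would give a median SD of 0.12 in the lowest class and 0.01 in the highest class, so the observed spread was the larger in both.

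**Figure D3:**
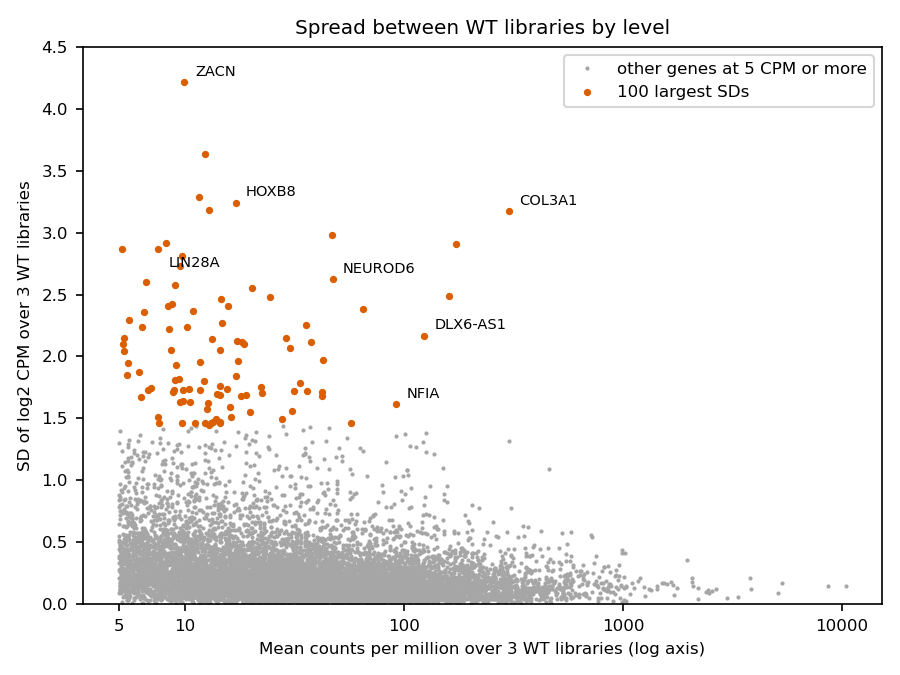
SD of log2 CPM over the 3 WT libraries against the mean CPM (log axis) for 12550 genes, with the 100 largest SDs in orange. Most genes lie below 0.49, and COL3A1, with a mean of 302 CPM, stands out at an SD of 3.18.

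By genes past 2-fold or 4-fold, replicates 3 and 1 were the farthest apart. Replicates 3 and 1 differed by more than 2-fold for 699 genes and by more than 4-fold for 172, replicates 2 and 1 for 538 and 92, and replicates 3 and 2 for 549 and 98. The biological coefficient of variation, the spread beyond counting error in a common edgeR estimate, was 44.5% in the 3 KO1 libraries and 22.9% in the 3 WT libraries. Without KO1 replicate 2 the KO1 value was 17.6%, and any 2 WT libraries gave between 21.3% and 24.6%. No test was made of the difference between KO1 and WT.

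The 100 genes with the largest SD, which these values chose and which are described with no test, fell into 6 patterns by which library stood apart. Replicate 1 was low for 32, replicate 2 low for 24, replicate 3 low for 15, replicate 3 high for 15, replicate 1 high for 9 and replicate 2 high for 5. Over all 12550 genes replicate 1 was low for 14.9%, replicate 2 low for 16.4% and replicate 3 low for 19.2%, whereas replicate 1 was high for 16.1%, replicate 2 for 14.4% and replicate 3 for 18.9%. Among all 1104 genes past 2-fold the tally was different, with replicate 3 low for 240, replicate 1 high for 211, replicate 3 high for 205, replicate 2 low for 195, replicate 1 low for 184 and replicate 2 high for 69. The SDs of the 100 reached down to 1.45 at ARHGAP29, a RhoA regulator, and the first gene outside the 100 was MXRA5, a matrix protein, at 1.44. By level, the gene just inside the minimum was PCDHB11 at 5.005 CPM and the one just outside AC020915.3 at 4.99 CPM. The 100 genes were spread over the genome, with 12 on chromosome 2, 12 on 17 and 9 on 7, where HOXD, HOXB and DLX clusters place neighbours side by side. Some members are uncertain, because reads of near-identical copies can be split between them: RGPD6, a RANBP2-like gene, had 0.77, 36.2 and 0.215 CPM while its copy RGPD5 had 97.7, 57.1 and 115 CPM, and EIF3CL had 29.7, 8.503 and 0.322 CPM while EIF3C, the translation initiation factor gene, had 400.01, 481 and 429 CPM. H4C15 is 1 of many near-identical histone genes. ZACN, a zinc-activated channel gene, had the largest SD and 0, 25.2 and 4.72 CPM. Its 0 counts in replicate 1 allow up to 0.122 CPM there, and its SD of 4.22 depends on the prior count of 2.

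**Figure D4:**
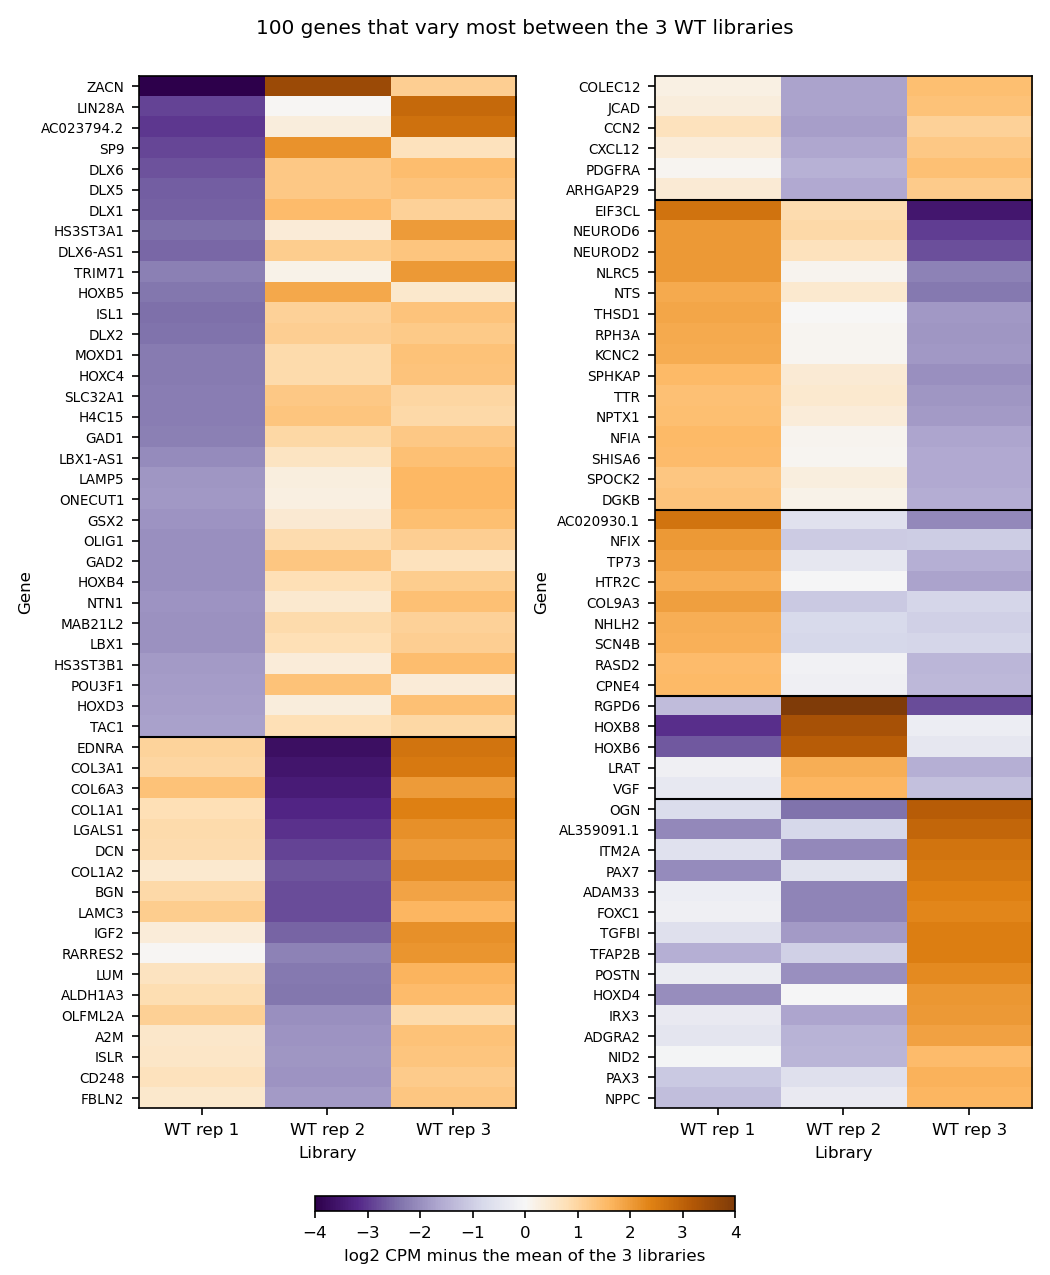
log2 CPM minus the mean of the 3 libraries for the 100 most variable genes in WT replicates 1, 2 and 3, with lines between the 6 patterns. Purple marks a library below the mean and orange above. The blocks in which replicate 1 or replicate 2 is low hold 32 and 24 genes.

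Promoters of 6 of these genes are shown because they span the main patterns and differ in their H3K27me3 peaks, the mark of Polycomb-repressed chromatin. Each runs 250 bases before to 50 after a RefSeq start on GRCh38.p14, is written 5′ to 3′ on the gene's strand, and has CG dinucleotides in capitals. A CG count of 15 or more was found in 48.9% of 35116 RefSeq promoters, in 76.8% of those of genes at 5 CPM or more, and in 57 of the 92 promoters (62.0%) that matched 65 of the 100 genes.
DLX2, chr2:172102851-172103150, minus strand: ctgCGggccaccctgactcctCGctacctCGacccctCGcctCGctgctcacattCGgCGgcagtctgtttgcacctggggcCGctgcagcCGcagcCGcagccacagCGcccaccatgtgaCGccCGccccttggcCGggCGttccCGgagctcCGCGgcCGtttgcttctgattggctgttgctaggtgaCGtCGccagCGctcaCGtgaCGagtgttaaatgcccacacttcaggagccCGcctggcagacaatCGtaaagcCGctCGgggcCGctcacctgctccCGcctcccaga
HOXC4, chr12:54016638-54016937, plus strand: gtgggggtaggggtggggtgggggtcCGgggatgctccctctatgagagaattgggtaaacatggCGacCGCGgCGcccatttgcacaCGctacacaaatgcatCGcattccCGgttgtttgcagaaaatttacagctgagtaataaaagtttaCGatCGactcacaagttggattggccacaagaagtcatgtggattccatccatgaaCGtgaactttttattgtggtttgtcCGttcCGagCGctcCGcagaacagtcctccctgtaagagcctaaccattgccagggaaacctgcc
PAX7, chr1:18630596-18630895, plus strand: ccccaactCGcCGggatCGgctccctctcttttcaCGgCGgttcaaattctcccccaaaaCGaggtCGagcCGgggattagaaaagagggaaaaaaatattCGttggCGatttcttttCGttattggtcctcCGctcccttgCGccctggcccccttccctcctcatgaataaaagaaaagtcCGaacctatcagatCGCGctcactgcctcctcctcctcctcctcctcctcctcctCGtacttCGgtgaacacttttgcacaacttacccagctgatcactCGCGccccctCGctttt
CXCL12, chr10:44385048-44385347, minus strand: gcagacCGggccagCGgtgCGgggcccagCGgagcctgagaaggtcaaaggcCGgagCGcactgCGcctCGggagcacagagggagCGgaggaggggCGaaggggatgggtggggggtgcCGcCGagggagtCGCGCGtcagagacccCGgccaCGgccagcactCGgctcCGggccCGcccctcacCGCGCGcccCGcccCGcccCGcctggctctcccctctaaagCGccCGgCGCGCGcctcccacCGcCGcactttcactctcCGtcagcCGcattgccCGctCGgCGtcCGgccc
NEUROD2, chr17:39607871-39608170, minus strand: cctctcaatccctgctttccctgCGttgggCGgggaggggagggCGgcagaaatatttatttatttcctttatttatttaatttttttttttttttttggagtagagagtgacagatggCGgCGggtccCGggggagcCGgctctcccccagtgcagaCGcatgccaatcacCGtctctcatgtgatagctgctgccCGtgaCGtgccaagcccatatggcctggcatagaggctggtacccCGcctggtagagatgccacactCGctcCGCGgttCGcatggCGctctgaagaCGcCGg
NEUROD6, chr7:31340677-31340976, minus strand: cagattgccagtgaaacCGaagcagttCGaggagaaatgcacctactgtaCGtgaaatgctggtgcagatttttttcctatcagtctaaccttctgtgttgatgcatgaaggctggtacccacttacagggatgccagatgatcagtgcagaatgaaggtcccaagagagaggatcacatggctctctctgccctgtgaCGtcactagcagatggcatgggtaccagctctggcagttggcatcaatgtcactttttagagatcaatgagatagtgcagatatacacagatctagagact

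The CG counts of these promoters were 30 for DLX2, 15 for HOXC4, 21 for PAX7, 39 for CXCL12, 19 for NEUROD2 and 4 for NEUROD6. WT H3K27me3 peaks covered all 300 bases of the HOXC4, PAX7, CXCL12 and NEUROD2 promoters and 103 of the 300 bases at DLX2, and NEUROD6 had no peak there. The longer of the 2 peaks at the DLX2 promoter was 23577 bp long and reached 18.9-fold over the control, and the HOXC4 peak 25369 bp and 19.1-fold. PAX7 had a peak of 19094 bp and 9.97-fold, CXCL12 one of 3632 bp and 9.94-fold, and NEUROD2 one of 15790 bp and 16.3-fold. The RefSeq spans of HOXC5 and HOXC6 begin at the same base as that of HOXC4, so the window shown is not particular to HOXC4. These folds are the authors' own values from 1 ChIP library.

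Interneuron genes were among those low in replicate 1. DLX1 and DLX2, neighbouring homeobox genes of ventral forebrain progenitors, had 3.36, 60.00 and 43.4 CPM and 3.57, 42.2 and 44.8 CPM. DLX5 and DLX6, their partners on chromosome 7, had 1.34, 20.8 and 22.3 CPM and 0.851, 14.8 and 17.2 CPM. The highest library exceeded replicate 1 by 12.3-fold for DLX2 and 18.5-fold for DLX6 on the log2 CPM scale with a prior count of 2, and replicates 2 and 3 were close to each other for all 4. DLX6-AS1, a noncoding RNA of the same locus, had 13.2, 169.7 and 188 CPM, and without a stated library strand its reads cannot be told apart from those of DLX6 where they overlap.

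The genes that make and load GABA followed the DLX genes. GAD1 and GAD2, which make GABA from glutamate, had 1.22, 11.6 and 14.6 CPM and 2.03, 20.02 and 13.2 CPM, and SLC32A1, which loads it into vesicles, had 1.54, 18.3 and 15.3 CPM. GSX2, a ventral progenitor factor upstream of DLX genes, had 1.82, 9.91 and 19.7 CPM, and SP9, of striatal and interneuron precursors, 0.527, 19.5 and 7.13 CPM. Of the 15 GABAergic genes at 5 CPM or more, 11 went past 2-fold, beside 8.8% of all genes. Of the 15, 8 were among the 100, a set taken from 12550 genes. Of the 15, 12 were lowest in replicate 1, a library that was lowest for 30.9% of all genes. The minimum is a mean over these same libraries. GAD1, GAD2, SLC32A1, GSX2 and the DLX genes of the list were below 5 CPM in replicate 1. They reached it through replicates 2 and 3, so a low replicate 1 and a wide spread are partly built into these counts. SP8 did not share the pattern and was lowest in replicate 3, as was CALB2, the calcium-binding protein calretinin, with 22.5, 10.8 and 3.75 CPM.

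HOX genes had a median SD of 1.84, beside 0.175 over all genes. All 10 of the HOX genes at 5 CPM or more went past 2-fold, 7 were among the 100, and 9 were lowest in replicate 1. Over all genes 8.8% went past 2-fold and 30.9% were lowest in replicate 1, and the 100 were taken from 12550 genes. HOX genes lie in clusters, and the spans of HOXB3 and HOXB4 overlap, as do those of HOXD3 and HOXD4. Such neighbours may share reads, so these counts are not of independent genes. HOXB6, HOXB8 and HOXD4 reached the minimum through 1 library alone, so their wide spread is partly built into these counts. HOXB3 had 59.9, 139 and 171 CPM, HOXB2 16.6, 35.1 and 44.9 CPM, HOXB4 5.55, 38.4 and 50.2 CPM and HOXC4 2.31, 21.2 and 29.1 CPM. HOXD3 and HOXD4 had 2.59, 11.4 and 24.4 CPM and 1.09, 4.53 and 20.3 CPM. These 6, genes of hindbrain and neck levels, were lowest in replicate 1 and highest in replicate 3. HOXB5, HOXB6 and HOXB8, which lie close together on chromosome 17 and belong to more posterior levels, had 4.296, 77.2 and 31.3 CPM, 0.324, 22.6 and 1.88 CPM and 0.446, 47.04 and 3.75 CPM. Replicate 2 was highest for all 3. HOXB7 and HOXB9, named after their values were seen, had 0.527, 11.6 and 1.02 CPM and 0, 12.00 and 0.5899 CPM, with the same library high. Of 39 HOX genes 10 had 0 counts in all 3 libraries, among them HOXA9, HOXC10 and HOXD10 of trunk and limb levels.

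Further genes low in replicate 1 had varied roles. LBX1, of dorsal hindbrain and spinal interneurons, had 2.51, 17.5 and 22.1 CPM, and its antisense neighbour LBX1-AS1, which may share reads with it, 1.46, 9.84 and 17.00 CPM. ISL1, of motor and sensory neurons, had 0.527, 6.79 and 8.31 CPM, OLIG1, of the ventral neural tube and oligodendrocyte lineage, 1.5, 11.5 and 13.7 CPM, and NTN1, the floor plate guidance cue netrin-1, 7.7, 41.1 and 77.5 CPM. TAC1, the precursor of substance P, had 3.61, 21.4 and 23.9 CPM. Replicates 2 and 3 were both above replicate 1 for each of these.

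Of the pluripotency list, 4 of 14 genes had at least 5 CPM, and 3 of these were highest in replicate 3, a library that was highest for 35.6% of all genes. LIN28A, which blocks let-7 microRNA maturation, had 0.284, 2.71 and 19.7 CPM, and TRIM71, a let-7 target of early progenitors, had 1.99, 10.7 and 39.1 CPM. LIN28A reached a mean of 5 CPM through replicate 3 alone, so its place among the 3 follows from the minimum. SALL4, a stem cell zinc-finger factor just outside the 100 at an SD of 1.43, had 15.04, 14.4 and 82.3 CPM. IGF2BP1, an mRNA-binding protein and let-7 target, had 247, 288 and 409.5 CPM, IGF2BP2 171, 159 and 225 CPM and IGF2BP3 129, 122 and 167 CPM. HMGA2, a chromatin protein and let-7 target, was highest in replicate 1 with 934, 684 and 595 CPM. TRIM71, SALL4, HMGA2 and the IGF2BP genes were chosen for naming after their values were seen.

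Extracellular matrix genes were among the 24 genes that were low in replicate 2. COL3A1, COL1A1 and COL1A2, the fibrillar collagen chains of connective tissue, had 226, 9.6 and 671 CPM, 126, 7.65 and 387 CPM and 108, 11.97 and 362 CPM. Replicate 2 was far below both other libraries for each, and replicate 3 was the highest. COL6A3, of microfibrillar collagen, had 54.5, 1.85 and 84.2 CPM, and the small proteoglycan genes DCN and LUM had 18.5, 1.303 and 40.9 CPM and 13.9, 1.71 and 27.7 CPM. EDNRA, the endothelin receptor of vascular and crest-derived mesenchyme, had the largest SD of the 24, with 8.47, 0.24 and 25.96 CPM. LGALS1, which encodes galectin-1, had 8.19, 0.446 and 19.9 CPM, BGN, a proteoglycan, 14.4, 1.03 and 28.4 CPM, and LAMC3, a laminin chain, 10.8, 0.617 and 14.9 CPM.

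The mesenchymal list behaved as a block in WT. Of its 19 genes at 5 CPM or more 18 were lowest in replicate 2, 13 were highest in replicate 3, 14 went past 2-fold and 7 were among the 100. Over all genes 33.5% were lowest in replicate 2, 35.6% highest in replicate 3 and 8.8% past 2-fold, and the 100 were taken from 12550 genes. SPARC, a matrix glycoprotein, had 445, 257 and 382 CPM, COL6A1 369, 247 and 340.1 CPM and FN1, fibronectin, 209, 202 and 519 CPM, so these members varied less than the fibrillar collagens. The list summed to 2005, 934 and 3403 CPM. In all, 20 of its 22 genes had a mean of at least 1 CPM.

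Signals of the same pattern came from outside the list. IGF2, an imprinted fetal growth factor, had 41.7, 5.49 and 148 CPM, CXCL12, a meningeal and stromal chemokine, 13.3, 3.22 and 24.99 CPM, and PDGFRA, a receptor of mesenchyme and oligodendrocyte precursors, 9.52, 3.15 and 24.6 CPM. H19, the noncoding RNA imprinted beside IGF2 and named after its values were seen, had 3.12, 0.137 and 10.7 CPM. The part of mesenchymal cells in these differences was not tested.

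Among the 15 genes that were low in replicate 3 were 2 of the cortical projection list. NEUROD6 and NEUROD2, bHLH factors of glutamatergic cortical neurons, had 94.9, 44.1 and 2.896 CPM and 51.7, 20.3 and 1.77 CPM. Both were highest in replicate 1 and lowest in replicate 3, and so were TBR1, FEZF2, a subcortical projection factor with 227, 107 and 60.5 CPM, and EMX1, a dorsal telencephalic factor with 80.7, 39.2 and 13.1 CPM. Of 19 cortical projection genes at 5 CPM or more 12 were lowest in replicate 3, beside 35.6% of all genes, and 8 were highest in replicate 1, beside 33.7% of all genes. POU3F2, a neurogenic factor, was lowest in replicate 1 and highest in replicate 3, with 33.9, 119 and 186 CPM.

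Further genes low in replicate 3 had varied roles. RPH3A, a vesicle protein, had 37.4, 11.2 and 2.84 CPM, SPHKAP, a kinase-anchoring protein, 23.9, 10.8 and 1.98 CPM, NPTX1, which clusters AMPA receptors, 81.1, 38.2 and 8.21 CPM, and NTS, neurotensin, 38.5, 15.4 and 2.15 CPM. TTR, given above, was also highest in replicate 1 and lowest in replicate 3. NFIA, a factor of late progenitors and gliogenesis, had 188, 69.5 and 20.1 CPM and its relative NFIB 198, 87.1 and 33.8 CPM, whereas NFIX had 81.3, 9.29 and 9.65 CPM and was high in replicate 1 alone. The NFI genes were chosen for naming after their values were seen. NLRC5, an activator of MHC class I genes, had 41.6, 10.8 and 2.15 CPM, and B2M, the light chain of MHC class I, 180.4, 92.2 and 49.3 CPM. Of 7 interferon and antigen presentation genes at 5 CPM or more 6 went past 2-fold, beside 8.8% of all genes, and 6 were highest in replicate 1, beside 33.7%. Among the latter was IFI44L, an interferon target, with 150.3, 66.9 and 30.5 CPM.

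Of the 15 genes that were high in replicate 3, some are of the dorsal neural tube or crest and some of mesenchyme. PAX7 and PAX3, paired factors of the dorsal neural tube and crest, had 0.608, 1.85 and 17.1 CPM and 4.42, 6.07 and 30.03 CPM. TFAP2B, a crest and dorsal interneuron factor, had 4.701, 6.96 and 74.9 CPM, and IRX3, a progenitor factor of caudal neural tissue, 2.72, 1.06 and 14.8 CPM. FOXC1, a factor of meninges and head mesenchyme, had 4.26, 1.06 and 25.3 CPM, POSTN, periostin, 5.43, 1.65 and 32.8 CPM and OGN, a small proteoglycan of connective tissue, 1.82, 0.514 and 26.9 CPM. In the last 3, replicate 2 was the lowest, as in the collagens, whereas PAX7, PAX3 and TFAP2B had their lowest value in replicate 1. Of the 8 hindbrain or spinal factors at 5 CPM or more 5 were among the 100, a set taken from 12550 genes. Highest in replicate 3 were 5 of the 8, beside 35.6% of all genes. In the neural crest and melanocyte list 4 of 15 genes had at least 5 CPM. All 4 went past 2-fold, beside 8.8% of all genes, 3 were highest in replicate 3 and 1 in replicate 1. The list means were 0.73, 0.71 and 1.13 log2 CPM. The minimum of 5 CPM is a mean over these same libraries. PAX7 and IRX3 reached it through replicate 3 alone, so a high replicate 3 is partly built into such counts.

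Small groups stood high in 1 library. In replicate 1, TP73, a p53 relative of Cajal-Retzius cells, had 51.8, 10.1 and 4.72 CPM over the 3 libraries, HTR2C, a serotonin receptor of choroid plexus and neurons, 21.5, 6.21 and 1.88 CPM, NHLH2, a bHLH factor of young neurons, 17.2, 2.91 and 2.57 CPM, and SCN4B, a sodium channel subunit, 32.3, 5.55 and 5.47 CPM. In replicate 2, VGF, a neuropeptide precursor, had 31.1, 124 and 17.1 CPM and LRAT, which esterifies retinol, 5.55, 21.8 and 2.199 CPM. Among the 30 largest SDs were also ITM2A, a membrane protein, with 2.31, 0.754 and 21.99 CPM, ADAM33, a metalloprotease of mesenchyme, with 2.15, 0.514 and 14.1 CPM, and HS3ST3A1, a heparan sulfate sulfotransferase, with 0.567, 4.49 and 14.00 CPM. AC023794.2, AL359091.1 and AC020930.1, which had no RefSeq position, had 0.162, 2.43 and 12.9 CPM, 0.486, 1.303 and 18.2 CPM and 41.5, 4.39 and 1.502 CPM. The neurofilament genes NEFM and NEFL, outside the 100, were low in replicate 1 with 35.6, 241 and 102 CPM and 39.6, 204 and 136 CPM.

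Other lists were described by their counts. All 18 ribosomal and translation genes were highest in replicate 1, beside 33.7% of all genes, and 15 were lowest in replicate 2, beside 33.5%. Of the 18, 0 went past 2-fold: RPL3 had 1715, 1355 and 1528 CPM. Of 13 mitochondrially encoded mRNAs 11 were lowest in replicate 3, beside 35.6% of all genes. The heat-shock and ER stress list had 0 of 16 genes past 2-fold and the immediate-early list 2 of 12, beside 8.8% of all genes, with FOS, a gene of recent activity or stress, at 9.81, 19.8 and 20.8 CPM. Of 10 p53 targets 3 went past 2-fold, including CDKN1A, a cell-cycle inhibitor, with 115, 37.2 and 75.9 CPM. In the hypoxia and glycolysis list 3 of 12 did, including VEGFA, a hypoxia target, with 92.1, 45.8 and 95.8 CPM.

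The same 100 genes also varied in the KO1 libraries, which the choice did not use. Their median SD of log2 CPM was 2.11 in KO1 and 1.90 in WT, beside 0.31 in KO1 and 0.175 in WT over all 12550 genes. In KO1, 97 of the 100 went past 2-fold, beside 28.5% of all genes. Without KO1 replicate 2, the library with mesenchymal mean 9.83, the median SD of the 100 in KO1 was 0.56. The 0.31 over all genes is from 3 libraries and is not the value to set beside it. Over all 12550 genes KO1 replicates 3 and 1 differed by a median of 0.16 in absolute log2 CPM. An SD over 2 libraries is smaller than their difference. COL3A1 ran between 206 and 14735 CPM in KO with a median of 6901 CPM, against 9.60 to 671 CPM in WT, whereas DLX2 ran between 2.87 and 13.6 CPM in KO, against 3.57 to 44.8 CPM in WT. HOXB8 was 0.09 to 2.07 CPM in KO, against 0.45 to 47.0 CPM in WT. No test between genotypes was made for these genes.

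H3K27me3 peaks in WT lay over most of the 100 genes. The deposited WT lists held 10340 H3K27me3 and 30144 H3K36me3 peaks, the second being a mark of transcribed gene bodies. Of 97 of the 100 genes with a RefSeq position, 74 (76.3%) had an H3K27me3 peak in the gene span, beside 515 of 1055 genes past 2-fold (48.8%) and 1347 of 12135 genes (11.1%) at 5 CPM or more. H3K36me3 peaks were found at 4 of the 97 (4.12%), beside 54.8% of all. Level differs between these sets, so shares were also taken within classes of level. At 10 to 50 CPM, 77.2% of the 100 that fell there had an H3K27me3 peak, beside 11.8% of all genes, and at 5 to 10 CPM 78.8%, beside 29.0%. At 50 CPM or more it was 4 of 7 genes, beside 5.29%. Within the class of 10 to 50 CPM 52.6% of genes past 2-fold had a peak, and 7.67% of genes not past 2-fold.

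**Figure D5:**
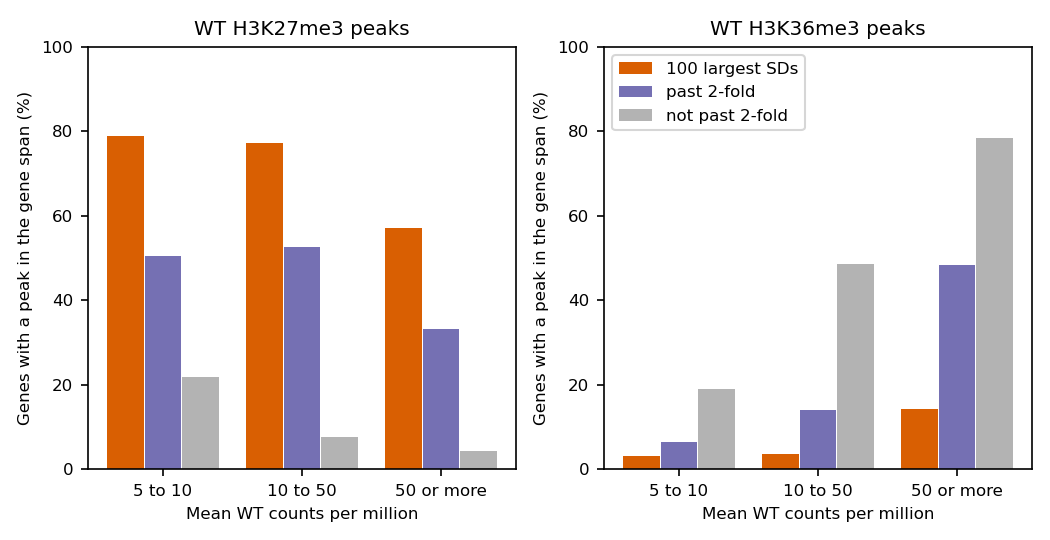
Percentage of genes with a WT H3K27me3 peak (left) or H3K36me3 peak (right) in the gene span, by mean WT CPM, for the 100 most variable genes, the genes past 2-fold, which include those 100, and the genes not past 2-fold. The orange bar at 50 CPM or more holds 7 genes, and at 10 to 50 CPM the H3K27me3 bars stand at 77.2%, 52.6% and 7.67%.

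The shares are given by pattern and list with no test of their differences. Among genes low in replicate 1, 30 of 31 (96.8%) had an H3K27me3 peak, and among genes low in replicate 2, 13 of 24 (54.2%). All 10 HOX genes and 14 of 15 GABAergic genes at 5 CPM or more had one, compared with 5 of 19 mesenchymal genes (26.3%) and 5 of 26 radial glia genes (19.2%). Neighbouring genes were counted separately even under a shared peak, such as DLX1 and DLX2 (23577 bp) and HOXB5 and HOXB6 (19447 bp). Members of these sets are therefore not independent. COL3A1, COL1A2, COL6A3, DCN and LUM were without a peak in the gene span, as were NEUROD6 and NFIA. COL1A1 had a peak of 2106 bp and 10.2-fold, and NEUROD6 had 1 within 2 kb of its span. Read from the other side, the 1347 genes with an H3K27me3 peak had a median SD of 0.42 and 38.2% past 2-fold, and the 10788 genes without one a median SD of 0.16 and 5.01% past 2-fold. The peak set had fewer reads, with a median level of 17.7 CPM, against 40.7 CPM in genes without a peak. In promoter windows alone, 43 of 65 matched genes among the 100 (66.2%) had an H3K27me3 peak, beside 6.1% of all matched genes. ChIP had 1 WT library per mark from day 40 neurons, so a peak and a transcript need not come from the same cells, and these shares have no replicate check.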

How the data were processed

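Per the submitters' processing notes, Salmon 1.1.0 and DESeq2 1.26.0 were named for RNA, Bowtie2 2.4.1 and MACS2 2.2.7.1 for ChIP, and GRCh38 as the build. RNA was deposited as estimated counts per gene symbol, which were not normalized. How transcripts were summed to genes, and the strand of the libraries, are not stated in the labels. Per the file headers, the authors called each peak list at a q-value of 0.01 from 1 ChIP and 1 control library, and the deposited fold ratio and −log10 q-value per peak are their own.

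Counts were rounded, and TMM factors came from the 8 RNA libraries over 18614 genes kept by filterByExpr (edgeR 4.0.16, R 4.3.3). CPM used these factors, and log2 CPM a prior count of 2. SDs are over 3 WT libraries. The WT libraries were compared with each other by edgeR's likelihood-ratio test at dispersion 0 over 12550 genes, and no test between genotypes was made. Data for 12550 genes were also simulated with counting error alone, the setting that this test assumes. There 26%, 86%, 96% and 100% of 50 genes raised 1.1-, 1.25-, 1.5- and 2-fold in WT replicate 1 were called, with 8 false calls. The simulation does not cover libraries that vary beyond counting error, as these do. Peaks were assigned by an overlap of at least 1 bp with RefSeq gene spans (GRCh38.p14). Totals of 17.4 to 27.8 M counts limit the precision of weak genes, and counting error is the only error this covers. Every column of the table had a sample.

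The genes and lists were chosen with earlier results of these data known. Named were the 25 genes with the highest mean WT CPM, the 30 with the largest SD, the 10 with the smallest SD at 50 CPM or more, KDM6A, and from each list the 4 highest members and those among the 100 most variable genes. Other genes named, such as those given to complete a pathway, were chosen after their values were seen. Genes that mark sex were left out. Some genes that meet this rule are not reported here. Alternatives were other scalings, minimums, prior counts and measures of spread, each library left out in turn, and stricter peak overlaps.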

Additional observations from a re-analysis of the deposited data

How the results depend on the processing

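No paired analysis was possible because no result comes from a test between groups. The count of genes beyond counting error stayed within 1.5 times of 10108 under every alternative run, from 7516 without WT replicate 3 to 13792 with no minimum level. The number of genes tested was not the same: 10108 and 7516 are of 12550 genes. At a minimum of 1 CPM 11998 of 15886 genes were called, and with no minimum 13792 of 30504. The share called was thus lower where weaker genes were let in. Scaling by DESeq2 size factors, by WT libraries only or by totals alone left 100, 98 and 96 of the 100 most variable genes among the 100, and over the named genes it moved only the ranges of steady genes (5, 10 and 10 of 135). Prior counts of 0.5 and 5 moved 0 of 135, and 0 of 33 lists moved under the 3 scalings. A range counted as moved only if it changed by at least the SD of its own 3 WT values. For the most variable genes and lists that bar is wide, so these counts cannot show that their ranges are stable. Of the 100, 67 were shared with a ranking by the coefficient of variation of CPM and 96 with one by the ratio of highest to lowest, and 45 remained at a minimum of 1 CPM and 65 at 10 CPM. The genes past 2-fold numbered 2296 and those past 4-fold 532 at 1 CPM, and 159 went past 4-fold at 10 CPM. The biological coefficient of variation of WT was 26.4% at 1 CPM, 20.1% as the median edgeR trend and 11.3% as the median DESeq2 gene-wise estimate. Leaving out 1 WT library gave between 21.3% and 24.6% for it, 54 to 68 shared genes among the 100, 538 to 699 genes past 2-fold and 92 to 172 past 4-fold. The choice of the 100 thus rests on all 3 libraries. Leaving out 1 KO1 library, added after seeing the data, gave a median SD of the 100 in KO1 between 0.56 and 2.32. Promoter windows, also added, gave 43 genes with an H3K27me3 peak and 0 with an H3K36me3 peak, over the 65 genes with such a window. CPM per kb of coding length was planned and not run, since no coding length was at hand. Genes at 5 to 10 CPM have the largest counting error, a median of 0.12 on the log2 scale.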

Other observations

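Outside the genes at 5 CPM or more, several posterior and midline genes were near 0 in 1 or 2 WT libraries. DBX1, of ventral spinal progenitors, had 0, 1.27 and 5.68 CPM, where 0 counts in replicate 1 allow up to 0.122 CPM. PHOX2A, of hindbrain visceral neurons, had 0.081, 0.343 and 4.29 CPM. EN2 and WNT1, of the midbrain-hindbrain boundary, had 0.770, 0.103 and 6.54 CPM and 0.486, 0.103 and 3.81 CPM. All 4 were highest in replicate 3, and these genes were chosen after their values were seen. TWIST1, of mesenchyme, had 0.203, 0.034 and 3.38 CPM.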
